A study of Mus musculus with 4 samples.

Results

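The receptors of the IL1 and IL18 family, with the secreted IL1 receptor antagonist, were examined in regulatory T cell (Treg) and T-effector samples of mouse CD4+ T cells. The 8 genes were Il1r1, Il1r2, Il1rl1, Il1rl2, Il1rap, Il1rn, Il18r1 and Il18rap, found as the non-control probes that carry one of these names on each of the 13 arrays. They had 18 probes, of which 12 passed a filter on dim signals, and each of the 8 genes was tested at its brightest probe among 19901 genes in all. CD4+ cells from lymph nodes were kept for 4 days on plates coated with anti-CD3 at 1 ug/ml, which engages the T cell receptor. All groups received IL2 at 100 units/ml for 3 days, alone (IL2, 3 arrays), with TGFb at 4 ng/ml (TGFb, 3 arrays), with TGFb at 4 ng/ml and IL6 at 25 ng/ml (TGFb with IL6, 4 arrays), or with IL6 at 25 ng/ml (IL6, 3 arrays). Each two-colour array held the RNA of a Treg and of a T-effector sample in opposite dyes. The series title asks how TGFb converts T cells into Treg and how IL6 inhibits this. The strain, age and sex of the mice and how Treg and T-effector samples were separated are not in the labels. Separate cultures or mice behind the arrays of 1 condition are not named in the labels either, so the p-values speak of the spread from array to array, and that spread may be technical.

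IL1 receptor type 1 (Il1r1) binds IL1α or IL1β, recruits the accessory protein IL1RAP, and signals through MyD88 to NF-kB. IL1 receptor type 2 (Il1r2) binds IL1 without signalling and acts as a decoy, and the antagonist encoded by Il1rn occupies the type 1 receptor. The same accessory protein serves the IL33 receptor ST2 (Il1rl1) and the IL36 receptor (Il1rl2), whereas the IL18 receptor pairs its own chains, Il18r1 and Il18rap. In CD4 T cells IL1 promotes the Th17 lineage, IL18 acts on Th1 cells, ST2 marks Th2 cells and some Treg, and IL1R2 is known from activated Treg.

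Of the 8 genes, 6 lie next to each other on mouse chromosome 1, in the order Il1r2, Il1r1, Il1rl2, Il1rl1, Il18r1 and Il18rap, while Il1rn is on chromosome 2 and Il1rap on chromosome 16. The promoters of 4 cluster genes are shown because their signals differed most between conditions (Il1r2, Il1r1 and Il18r1) or ran with a neighbour (Il18rap). Each is the 250 bases before a transcription start in RefSeq (build GRCm38.p6, plus strand), at chr1:40085843-40086092 for Il1r2, chr1:40224830-40225079 for the first of 2 starts of Il1r1, chr1:40465756-40466005 for the third of 3 starts of Il18r1 and chr1:40515112-40515361 for Il18rap. Capitals mark the motif TTCNNNGAA, which STAT factors can bind.
Il1r2: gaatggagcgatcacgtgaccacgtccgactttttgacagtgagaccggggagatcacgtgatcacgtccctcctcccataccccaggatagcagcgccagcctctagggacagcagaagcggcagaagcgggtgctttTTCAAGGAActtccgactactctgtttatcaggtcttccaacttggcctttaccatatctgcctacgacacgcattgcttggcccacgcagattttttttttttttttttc
Il1r1: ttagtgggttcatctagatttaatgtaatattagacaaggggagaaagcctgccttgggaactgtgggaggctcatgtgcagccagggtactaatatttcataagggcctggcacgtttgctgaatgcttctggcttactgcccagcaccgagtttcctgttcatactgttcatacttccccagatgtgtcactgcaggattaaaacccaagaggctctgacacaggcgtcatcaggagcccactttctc
Il18r1: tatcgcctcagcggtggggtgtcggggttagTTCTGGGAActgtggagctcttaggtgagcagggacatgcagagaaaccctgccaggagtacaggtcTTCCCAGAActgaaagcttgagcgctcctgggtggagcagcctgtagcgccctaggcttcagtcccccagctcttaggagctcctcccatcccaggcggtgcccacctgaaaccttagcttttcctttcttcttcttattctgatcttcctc
Il18rap: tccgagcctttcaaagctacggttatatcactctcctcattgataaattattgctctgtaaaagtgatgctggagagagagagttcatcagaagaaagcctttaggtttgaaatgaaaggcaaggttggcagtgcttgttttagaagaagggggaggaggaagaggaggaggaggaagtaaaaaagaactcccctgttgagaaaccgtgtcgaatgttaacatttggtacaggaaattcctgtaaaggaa

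All 8 genes had an entry in the RefSeq promoter table, with 14 starts between them. The letters searched on both strands were TTCNNNGAA (STAT), TGANTCA (AP-1) and CAGAC (SMAD box), which occur in 7.02%, 6.75% and 42.2% of the 32851 windows of 250 bases in the table. TTCNNNGAA stood 111 bases before the start of Il1r2 and 219 and 152 bases before the third start of Il18r1. TGANTCA stood 141 bases before the first of 3 starts of Il1rn. CAGAC was found at Il1rl2, Il1rap and the other two starts of Il1rn, and the windows of Il1r1, Il1rl1 and Il18rap held no match. These matches describe the letters of the windows only.

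The 13 arrays were spread over 5 slides, here given the letters A to E. On slide B the negative control spots were brighter in Cy3. Their median above local background was 118.4 to 123.1 there, against 3.59 to 25.4 on the other slides. Slide B held 1 array of TGFb and 2 of TGFb with IL6, and none of IL2 or IL6. Over the channels, 38.9% to 69.7% of probes were well above background in the Treg channels, and 41.7% to 67% in those of T-effector samples. Foxp3, the factor that defines Treg, was higher in Treg by 2.39, 1.95, 2.16 and 2.12 (log2) in the order of conditions above. The 2 Treg samples on slide A (IL2 array 1 and IL6 array 2) stood apart from the other 4 Treg samples without TGFb. Their Gzma signal was 8.03 and 7.79 against 10.48 to 12.25 and their Tbx21 10.20 and 9.75 against 11.67 to 12.20 (log2). The summed linear signal of 8 NK and CD8 T cell markers was 1745 and 1690 against 4229 to 8602. Their Csf1r was 8.06 and 8.54 against 6.24 to 6.90 (log2). The summed signal of the 8 myeloid and dendritic cell markers that include Csf1r did not stand apart, at 1103 and 1206 against 887 to 1261. Among the 8 genes, Il18r1, Il1rl2 and Il18rap were higher and Il1rl1 lower in these 2 samples than in all 4 others (Il18r1 7.77 and 8.31 against 6.45 to 7.14). For no gene of the 8 were both T-effector partners outside the range of the other 4. Where leaving out slide A made or lost a call, that is therefore stated. The Y-linked transcript Ddx3y passed the background limit in 11 of 13 Treg channels but in 0 of 13 T-effector channels, and Xist in 13 of each. Eif2s3y, also Y-linked, passed that limit in 13 Treg channels and in 5 of the T-effector ones. On IL6 arrays 1 and 3 Ddx3y was not well above background in either sample, and Eif2s3y was lower in Treg there (6.46 and 6.36) than on the 10 other arrays with a value (7.67 to 10.17). The Treg and T-effector samples of most arrays thus differed in Y-linked RNA, and the labels do not say why. Ddx3y in Treg also differed between arrays and conditions. It ran from 6.32 to 8.87 (log2) with IL2 and from 5.80 to 8.94 with IL6. With TGFb, with or without IL6, it ran from 7.77 to 8.10. The part of slide A, of slide B and of Y-linked RNA in the results was not tested, apart from the values given beside them. In bulk samples like these, fewer cells of a type and less RNA per cell cannot be told apart.

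Between Treg and T-effector samples, 3 of the 8 genes passed the test in each condition, 2 of them higher and 1 lower in Treg. The test was limma's moderated test on log2 ratios, adjusted over all genes by Benjamini-Hochberg at 0.05, and 11% of all genes passed with IL2 (7.41% higher and 3.56% lower in Treg). With TGFb 5.97% passed (4.15% higher and 1.83% lower), with TGFb and IL6 5.84% (3.5% and 2.34%) and with IL6 5.84% (3.76% and 2.08%). By the fitted ratio, the decoy receptor Il1r2 led in IL2 and IL6, the IL18 receptor chain Il18r1 in TGFb, and the signalling receptor Il1r1 in TGFb with IL6. Each value is fitted with a term for the dye, so it can differ from the plain mean of the arrays' ratios. The authors' deposited ratios, given below, have other genes in the lead with IL6 and with TGFb and IL6. The median log2 ratio of the 8 genes was 0.105, 0.084, 0.124 and 0.392 in these conditions, against 0.017, -0.014, -0.015 and 0.008 for all genes. Whether the ratio itself differed between conditions was tested too. Here 1 of 8 genes passed for TGFb against IL2, with a smaller ratio under TGFb (5.87% of all genes, 2.36% larger and 3.51% smaller). For TGFb with IL6 against TGFb 1 passed, Il1r1, with a larger fitted ratio under both cytokines but no TGFb channel well above background (0.291% of all genes, 0.1% larger and 0.191% smaller). For TGFb with IL6 against IL6 1 passed, with a smaller ratio (3.99% of all genes, 1.51% larger and 2.48% smaller). For IL6 against IL2, limma called 0 of 8 genes and 0% of all genes, and at an unadjusted p under 0.05 0 of the 8 and 683 of 19901 passed. Without slide A the counts were 2, 3, 3 and 4 for Treg against T-effector samples and 2, 2, 1 and 0 for the ratio differences in the orders given. The share of all genes that passed without slide A is not given, so these counts cannot be set against it.

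Conditions were also compared within each sample type, from the signals of single channels. In Treg, 3 of 8 genes rose and 2 fell for TGFb against IL2 (7.54% of all genes, 3.5% higher and 4.04% lower). For TGFb with IL6 against TGFb 1 rose and 1 fell (5.38% of all genes, 2.77% higher and 2.6% lower). For IL6 against IL2 1 rose (0.834% of all genes, 0.342% higher and 0.492% lower), and for TGFb with IL6 against IL6 3 rose and 1 fell (9.6% of all genes, 4.6% higher and 5% lower). In T-effector samples 2 rose and 2 fell for TGFb against IL2 (4.26% of all genes, 1.94% higher and 2.32% lower), and 2 rose and 1 fell for TGFb with IL6 against TGFb (7.21% of all genes, 4.06% higher and 3.15% lower). For IL6 against IL2 2 rose (0.784% of all genes, 0.382% higher and 0.402% lower), and for TGFb with IL6 against IL6 3 rose and 1 fell (10.9% of all genes, 5.05% higher and 5.84% lower). Without slide A the numbers that passed were 5, 3, 3 and 5 in Treg and 2, 3, 2 and 4 in T-effector samples, again with no share of all genes to set them against. These comparisons share samples: the IL2 samples serve 2 of them, as do those of each other condition. The median log2 difference of the 8 genes was -0.153, 0.185, 0.146 and 0.262 in Treg and 0.072, 0.098, 0.09 and 0.129 in T-effector samples. For all genes it lay between -0.021 and 0.019.

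**Figure D1:**
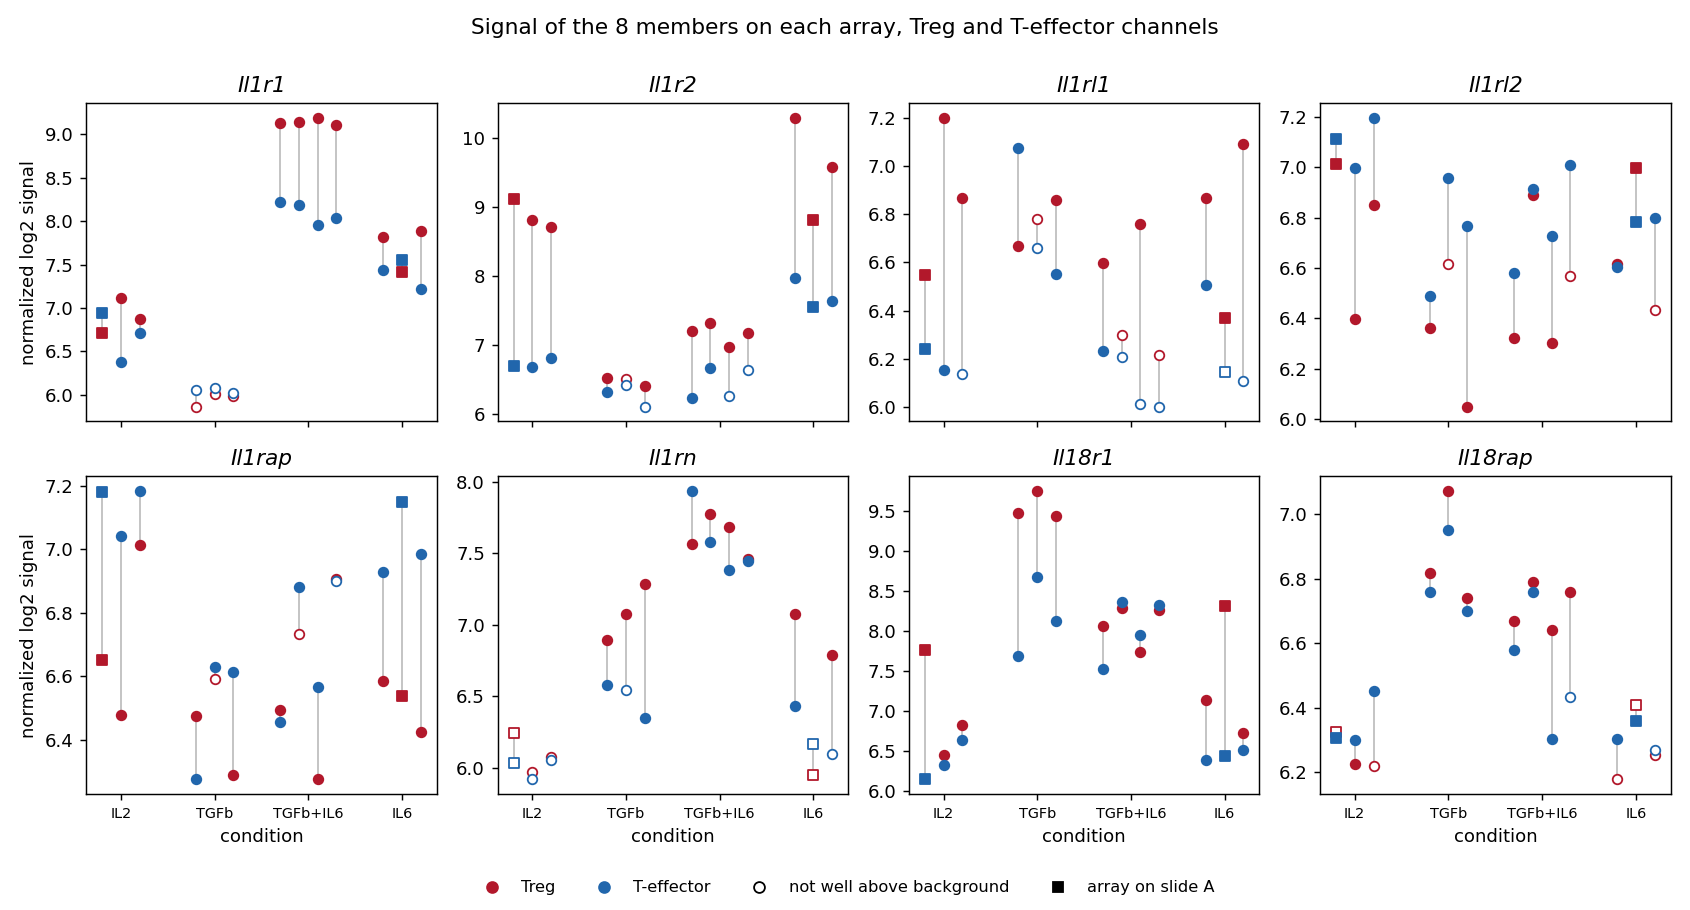
Normalized log2 signal (vertical axes, scaled per gene) of the 8 genes on each of 13 arrays, by condition, with Treg in red and T-effector in blue and the samples of 1 array joined by a line. Open symbols are not well above background, and squares are the 2 arrays on slide A. Il1r1 is highest in TGFb with IL6 and open throughout TGFb, Il1r2 is highest in Treg of IL2 and IL6, and Il18r1 is highest in Treg of TGFb.

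Il1r1, the signalling receptor for IL1, was lowest with TGFb and highest when IL6 was added to TGFb, with its highest level in Treg. Its probe, at chr1:40555675-40555734 (build mm7, as all probe positions here), was well above background in 20 of 26 channels. In Treg the log2 signal was 6.72, 7.11 and 6.87 in IL2 and 7.81, 7.42 and 7.89 in IL6, and with TGFb added 5.87, 6.02 and 5.98 in TGFb and 9.13, 9.14, 9.19 and 9.10 in TGFb with IL6. In T-effector samples it was 6.95, 6.38 and 6.71 in IL2 and 7.43, 7.55 and 7.21 in IL6, and with TGFb added 6.06, 6.08 and 6.02 in TGFb and 8.22, 8.19, 7.95 and 8.04 in TGFb with IL6. No channel of TGFb was well above background, and every channel of TGFb with IL6 lay above every channel of the other conditions. Treg and T-effector samples did not overlap in TGFb with IL6, and overlapped in IL2 and IL6. In TGFb no order can be read, since both were below background.

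The addition of IL6 to TGFb raised Il1r1 in Treg by 3.16 ± 0.13 (log2 ± SE, adjusted p = 6.85e-13) and in T-effector samples by 2.08 ± 0.13 (adjusted p = 7.50e-10). Since the TGFb side is only a bound, the rise was at least 7.32-fold in Treg and at least 4.12-fold in T-effector samples, taking for each TGFb array the higher of the probe's own signal and the lowest signal well above background. It was of like size on each slide that held both conditions: 3.27, 3.13 and 3.21 in Treg and 2.16, 2.11 and 1.93 in T-effector samples on slides E, B and D. Ddx3y in these Treg samples was 7.77 to 7.88 (log2) with TGFb and 7.77 to 8.10 with TGFb and IL6. TGFb alone lowered Il1r1 against IL2, at -0.89 ± 0.14 and at least 1.55-fold in Treg (adjusted p = 0.000195) and at -0.69 ± 0.14 and at least 1.54-fold in T-effector samples (adjusted p = 0.00504). The T-effector call was lost without IL2 array 1 (-0.56, adjusted p = 0.0780; adjusted p 2.90e-06 to 0.0780 over 25 alternatives). IL6 on its own raised Il1r1 in Treg by 0.87 ± 0.14 (adjusted p = 0.00209). TGFb with IL6 exceeded IL6 by 1.41 ± 0.13 in Treg and 0.73 ± 0.13 in T-effector samples (adjusted p = 1.19e-07 and 0.000603). On slide E alone these 2 differences were 1.32 and 0.79.

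In T-effector samples IL6 also raised Il1r1 against IL2, by 0.66 ± 0.14 (adjusted p = 0.0241), but this call depended on single arrays. It was lost without IL2 array 2 or 3, TGFb array 1, TGFb with IL6 array 1, or any IL6 array (0.54 to 0.71, adjusted p up to 0.0851), with Agilent's processed signals and with all spots in the background model (adjusted p 0.0183 to 0.196 over 25 alternatives). Within slide A the difference was 0.61, and 0.70 in Treg. Between sample types Il1r1 was higher in Treg in TGFb with IL6, with log2 ratios of 0.91, 0.95, 1.24 and 1.06 on the 4 arrays (1.04 ± 0.12, adjusted p = 0.000549). In IL2 the ratios were -0.23, 0.73 and 0.17 and in IL6 0.38, -0.13 and 0.67, so that the direction differed between arrays, and the array with a ratio below 0 was that on slide A in both. Without slide A the IL6 value passed the test (0.53, adjusted p = 0.0283) and the IL2 value did not (0.35, adjusted p = 0.132). Against TGFb the ratio in TGFb with IL6 has no measured reference, since none of the 6 TGFb channels was well above background. The fitted difference of these ratios, 1.08 ± 0.18 (adjusted p = 0.0332), is given for completeness only, and was 1.11, 1.02 and 1.28 larger within slides E, B and D. With the array number as a block the fitted value was 1.13 (adjusted p = 0.0872) and no longer passed. It was also lost without any 1 of the 3 TGFb arrays, the 4 arrays of TGFb with IL6 or IL6 array 3 (0.95 to 1.16, adjusted p 0.0556 to 0.377), and under 5 other alternatives (adjusted p 0.00448 to 0.603 over 26 alternatives).

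Il1r2, the decoy receptor, had the largest fitted Treg to T-effector ratio of the family in IL2 and in IL6, and TGFb lowered its signal in Treg. Its probe lies at chr1:40362239-40362298 and was well above background in 21 of 26 channels. The Treg signal was 9.12, 8.81 and 8.71 in IL2 and 10.29, 8.80 and 9.58 in IL6, and with TGFb added 6.52, 6.51 and 6.40 in TGFb and 7.20, 7.31, 6.97 and 7.17 in TGFb with IL6. The T-effector signal was 6.70, 6.69 and 6.81 in IL2 and 7.98, 7.55 and 7.63 in IL6, and with TGFb added 6.32, 6.42 and 6.11 in TGFb and 6.24, 6.66, 6.26 and 6.64 in TGFb with IL6. Every Treg sample of IL2 and IL6 lay above every other channel, while Treg and T-effector samples with TGFb alone overlapped, with 3 of those 6 channels not well above background.

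In Treg, TGFb lowered Il1r2 against IL2 (-2.42 ± 0.24, log2 ± SE, adjusted p = 3.52e-07), with -2.41 within slide D. TGFb with IL6 was likewise below IL6, at -2.39 ± 0.22 (adjusted p = 1.03e-07; -3.09 within slide E). Ddx3y in these Treg samples was 8.87, 6.32 and 6.43 (log2) with IL2 and 7.77 to 7.88 with TGFb. It was 6.13, 8.94 and 5.80 with IL6 and 7.77 to 8.10 with TGFb and IL6. In T-effector samples TGFb with IL6 was below IL6 at -1.28 ± 0.22 (adjusted p = 0.000392), and the value for TGFb against IL2 was -0.43 ± 0.24 (adjusted p = 0.350). IL6 against IL2 gave 1.00 ± 0.24 in T-effector samples (adjusted p = 0.0482), a call lost under 20 of 25 alternatives, among them the omission of any of 12 arrays, each but IL6 array 2 (0.86 to 1.08, adjusted p 0.0687 to 0.261). In Treg the same comparison gave 0.66 ± 0.24 (adjusted p = 0.317), and 1.12, adjusted p = 0.00564, without slide A. The addition of IL6 to TGFb gave 0.70 ± 0.22 in Treg (adjusted p = 0.0719), and 0.67, adjusted p = 0.00751, without slide A. The Treg samples of these 2 conditions did not overlap.

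Between sample types the log2 ratios of Il1r2 were 2.42, 2.13 and 1.90 with IL2 (2.16 ± 0.17, adjusted p = 3.89e-05) and 2.32, 1.25 and 1.94 with IL6 (1.82 ± 0.17, adjusted p = 0.000144). The IL6 arrays 1 and 3, on which neither sample had Ddx3y well above background, gave 2.32 and 1.94. With TGFb and IL6 the ratios were 0.97, 0.65, 0.71 and 0.53 (0.71 ± 0.14, adjusted p = 0.0150), a call lost without array 1, 2 or 3 of that condition (0.64, 0.75 and 0.70, adjusted p 0.0556 to 0.120), without slide B, with median centring and with all spots in the background model (adjusted p 0.000538 to 0.218 over 25 alternatives). With TGFb they were 0.19, 0.08 and 0.29, which did not pass. The ratio itself was smaller with TGFb than with IL2, at -1.99 ± 0.24 (adjusted p = 0.00193), and -1.83 within slide D. This call was lost with all spots in the background model (adjusted p 3.98e-05 to 0.168 over 25 alternatives). The ratio was also smaller with TGFb and IL6 than with IL6, at -1.11 ± 0.22 (adjusted p = 0.0260), but here any array of TGFb with IL6, IL6 array 3 and slide B each decided the call (-1.20 to -0.98 without them, adjusted p 0.0569 to 0.185). With Agilent's processed signals and with median centring that difference shrank to -0.27 and -0.38 (adjusted p 0.00148 to 0.594 over 25 alternatives).

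A second Il1r2 probe, at chr1:40351196-40354143, a stretch longer than the probe itself, was well above background in 16 of 26 channels and gave the same order. Its Treg to T-effector value was 1.24 ± 0.15 with IL2 and 1.25 ± 0.15 with IL6 (adjusted p = 0.000885 and 0.00113), 0.10 ± 0.15 with TGFb and 0.44 ± 0.13 with TGFb and IL6 (adjusted p = 0.808 and 0.0733). In Treg it fell by 1.26 with TGFb against IL2 and by 1.59 with TGFb and IL6 against IL6 (log2, adjusted p = 0.000221 and 3.85e-06). Il1r2 is also a gene of myeloid cells. Of 13 myeloid and dendritic cell markers, 8 were tested, S100a8 and Csf3r were well above background in 0 of 26 channels, and the summed linear signal of the 8 ran from 887 to 1261 in Treg with IL2 or IL6, and from 838 to 984 in their T-effector partners. Between Treg and T-effector samples with IL6 limma called 0 of the 8 and 5.84% of all genes. At an unadjusted p under 0.05, 2 of the 8 and 4435 of 19901 genes passed there. With IL2 limma called 1 of the 8 and 11% of all genes. The 1 was Tyrobp, which was lower in Treg (-0.47 ± 0.11, adjusted p = 0.0231). At an unadjusted p under 0.05, 4 of the 8 and 5585 of 19901 genes passed with IL2. Csf1r had means of 7.08 ± 0.90 in Treg and 6.10 ± 0.01 in T-effector samples with IL2 and 7.16 ± 1.22 and 5.96 ± 0.17 with IL6 (log2 ± SD), and Itgax 7.14 ± 0.64 and 6.49 ± 0.24 with IL2, and neither passed. The part of such cells in the Il1r2 signal was not tested.

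Il1rn, the antagonist that blocks the type 1 receptor, was not well above background in any IL2 channel and was highest in TGFb with IL6 in both sample types. Its probe, at chr2:24357916-24357975, was well above background in 16 of 26 channels. Treg samples measured 6.24, 5.97 and 6.07 in IL2 and 7.08, 5.95 and 6.79 in IL6, and with TGFb added 6.90, 7.07 and 7.29 in TGFb and 7.57, 7.77, 7.68 and 7.46 in TGFb with IL6. T-effector samples measured 6.03, 5.92 and 6.06 in IL2 and 6.43, 6.17 and 6.10 in IL6, and with TGFb added 6.58, 6.55 and 6.35 in TGFb and 7.94, 7.58, 7.38 and 7.45 in TGFb with IL6. The samples of TGFb with IL6 lay above all others, and within that condition Treg and T-effector samples overlapped. In Treg with IL6 the array on slide A was the low one, at 5.95.

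TGFb raised Il1rn in Treg at least 1.99-fold against IL2 (log2 1.03 ± 0.21, adjusted p = 0.00220; 1.32 within slide D). In T-effector samples the same comparison gave 0.44 ± 0.21 (adjusted p = 0.268), at least 1.40-fold by the bound, and did not pass, although the samples did not overlap. IL6 added to TGFb raised it in T-effector samples by 1.12 ± 0.19 (adjusted p = 0.000545), by 1.36, 1.04 and 1.03 on slides E, B and D. In Treg that value was 0.51 ± 0.19 (adjusted p = 0.154). TGFb with IL6 exceeded IL6 by 0.99 ± 0.19 in Treg and 1.38 ± 0.19 in T-effector samples (adjusted p = 0.00129 and 3.62e-05). For IL6 against IL2 in Treg the bound was at least 1.42-fold (fitted log2 0.55 ± 0.21, adjusted p = 0.358), and the fit passed without slide A (adjusted p = 0.0126).

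With TGFb, Treg samples had more Il1rn than their T-effector partners, with ratios of 0.32, 0.53 and 0.94 (0.64 ± 0.17, adjusted p = 0.0449), but the call was lost under 16 of 25 alternatives. These included the omission of any TGFb array (0.52 to 0.74, adjusted p 0.0954 to 0.416), of IL2 array 2 or 3, of TGFb with IL6 array 1, 3 or 4, or of IL6 array 3 (0.63 to 0.65, adjusted p 0.0543 to 0.0727). Over all alternatives the adjusted p ran from 0.0068 to 0.847. With IL6 the ratios were 0.65, -0.22 and 0.69 (0.42 ± 0.17, adjusted p = 0.166), the value below 0 being that of slide A, and without slide A the value was 0.67, adjusted p = 0.0185. In TGFb with IL6 the ratios were -0.37, 0.19, 0.30 and 0.02 and did not pass. The second Il1rn probe was well above background in 2 of 26 channels. Monocytes and macrophages also make the antagonist. For TGFb against IL2 in Treg, limma called 0 of 8 myeloid markers and 7.54% of all genes. At an unadjusted p under 0.05, 1 of the 8 and 3729 of 19901 genes passed. The summed signals were 868 to 1065 with TGFb and 935 to 1261 with IL2. In TGFb with IL6, where Il1rn was highest, the sums ran from 1071 to 1406 for Treg samples and from 1005 to 1394 for T-effector samples. Of the 8 markers limma called 1 there, Fcer1g, an Fc receptor chain. It was higher by 0.73 ± 0.18 against TGFb in Treg (adjusted p = 0.0173; 2.77% of all genes rose), where Il1rn did not pass. Against IL6 it was higher by 0.81 ± 0.18 in Treg (adjusted p = 0.00483; 4.6% rose) and 0.71 ± 0.18 in T-effector samples (adjusted p = 0.0120; 5.05% rose), where Il1rn rose too. Against TGFb in T-effector samples, where Il1rn rose, limma called 0 of the 8 and 7.21% of all genes. At an unadjusted p under 0.05, 1 of the 8 and 3512 of 19901 genes passed there. The median log2 difference of the 8 lay between -0.036 and 0.155 in these comparisons. The part of such cells in the Il1rn signal was not tested.

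Il1rap, the accessory chain shared by the IL1, IL33 and IL36 receptors, varied over a narrow range, from 6.27 to 7.18 (log2) over 26 channels. Its tested probe, at chr16:26378192-26378251, was well above background in 23 channels. The probe stands for a cDNA record with no transcript variant named, so which form of Il1rap it measures is not known here. T-effector values were 7.18, 7.04 and 7.18 in IL2 and 6.93, 7.15 and 6.99 in IL6, and with TGFb added 6.27, 6.63 and 6.61 in TGFb and 6.46, 6.88, 6.57 and 6.90 in TGFb with IL6. In Treg the signal was 6.65, 6.48 and 7.01 in IL2 and 6.58, 6.54 and 6.42 in IL6, and with TGFb added 6.48, 6.59 and 6.29 in TGFb and 6.49, 6.73, 6.28 and 6.91 in TGFb with IL6. Treg samples lay below T-effector samples in IL2 and IL6 without overlap, and the sample types overlapped in both TGFb conditions. With IL6 the ratio was -0.52 ± 0.12 (adjusted p = 0.0240), and -0.35 and -0.56 on the 2 arrays with no Ddx3y well above background. This call was lost without IL6 array 2 or 3 (-0.46 and -0.53, adjusted p = 0.101 and 0.167), slide A (-0.46, adjusted p = 0.0538) or slide B (adjusted p 0.000236 to 0.167 over 25 alternatives).

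With IL2 the Il1rap ratio was -0.41 ± 0.12 (adjusted p = 0.0441), and without slide A -0.26, adjusted p = 0.266. It was lost without IL2 array 1 or 2 (-0.28 and -0.35, adjusted p = 0.305 and 0.224), and without TGFb array 2, any array of TGFb with IL6 or IL6 array 3 (-0.41 to -0.40, adjusted p 0.0588 to 0.0628). In T-effector samples TGFb lowered Il1rap against IL2 (-0.61 ± 0.16, adjusted p = 0.0295). That call was lost without IL2 array 1 or 3, TGFb array 1 or 3, or slide A (-0.67 to -0.51, adjusted p 0.065 to 0.184). Within slide D the difference was -0.43. The probe of transcript variant 2 of Il1rap was well above background in 21 channels and gave Treg to T-effector values between -0.12 and 0.01, none past the test (adjusted p 0.584 to 0.98). For TGFb against IL2 in T-effector samples that probe gave -0.23 ± 0.14 (adjusted p = 0.394) and did not pass. The probes of variant 1 and of 2 further transcripts were above background in 0, 2 and 0 of 26 channels.

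Il1rl1 encodes ST2, the receptor for IL33, as a membrane form and a soluble decoy form. The tested probe is that of transcript variant 1, the membrane form, at chr1:40705585-40705644, and was well above background in 16 of 26 channels. Treg values were 6.55, 7.20 and 6.87 in IL2 and 6.87, 6.37 and 7.09 in IL6, and with TGFb added 6.67, 6.78 and 6.86 in TGFb and 6.60, 6.30, 6.76 and 6.22 in TGFb with IL6. The signal in T-effector samples was 6.24, 6.15 and 6.14 in IL2 and 6.50, 6.14 and 6.11 in IL6, and with TGFb added 7.07, 6.66 and 6.55 in TGFb and 6.23, 6.21, 6.01 and 6.0 in TGFb with IL6. Treg exceeded T-effector samples on every array of IL2, TGFb with IL6 and IL6, and the groups were separate in IL2 only.

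The Treg to T-effector value of Il1rl1 was 0.62 ± 0.13 with IL2 (adjusted p = 0.0152, and 0.69, adjusted p = 0.0336, without slide A). With IL6 it was 0.60 ± 0.13 (adjusted p = 0.0252, and 0.67, adjusted p = 0.0321, without slide A). The first was lost without IL2 array 1 or 2 (0.67 and 0.52, adjusted p = 0.0597 and 0.121) and with all spots in the background model (adjusted p 0.00239 to 0.363 over 25 alternatives). The second was lost without IL6 array 1 or 3 (0.60 and 0.49, adjusted p = 0.0515 and 0.241) and with no dye term (adjusted p 0.00245 to 0.241 over 25 alternatives). On IL6 arrays 1 and 3, with no Ddx3y well above background, the ratio was 0.36 and 0.98. The Treg sample was in Cy5 on the 3 arrays with the highest ratios, 1.05, 0.98 and 0.74. With TGFb and IL6 the value was 0.35 ± 0.11 (adjusted p = 0.0983) and with TGFb 0.09 ± 0.13. In T-effector samples IL6 lowered the signal when added to TGFb (-0.61 ± 0.16, adjusted p = 0.0176; -0.84, -0.45 and -0.54 on slides E, B and D). This call was lost without TGFb array 1 or 3 or TGFb with IL6 array 2 (-0.49, -0.63 and -0.61, adjusted p = 0.152, 0.0664 and 0.0555). Only 2 of 3 T-effector channels with TGFb and 1 of 4 with TGFb and IL6 were well above background. On slide B neither side was, so the size of this fall is uncertain.

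The 2 probes of variant 2, the soluble form, were well above background in 1 and 3 of 26 channels. Mast cells and basophils also carry ST2. Of their 9 markers, 7 were tested, with summed linear signals with IL2 of 868 to 1078 in Treg against 1238 to 1308 in T-effector samples, and 672 to 851 and 801 to 924 with IL6. The marker Hdc, which makes histamine, was lower in Treg in both conditions (-0.94 ± 0.11 and -0.80 ± 0.11), while Il1rl1 was higher. Where IL6 added to TGFb lowered Il1rl1 in T-effector samples, Hdc fell with it (-0.97 ± 0.13, adjusted p = 2.23e-05). Cpa3 and Gata2 were well above background in 1 and 2 of 26 channels. The part of such cells in the Il1rl1 signal was not tested.

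Il1rl2, the receptor for the IL36 cytokines, was lower in Treg than in T-effector samples on 11 of 13 arrays at its tested probe, by small amounts. Its tested probe, at chr1:40606514-40606573, was well above background in 23 of 26 channels. It stands for a cDNA record, so which form of Il1rl2 it measures is not known here. The signal in Treg was 7.01, 6.40 and 6.85 in IL2 and 6.62, 7.0 and 6.43 in IL6, and with TGFb added 6.36, 6.62 and 6.05 in TGFb and 6.32, 6.89, 6.30 and 6.57 in TGFb with IL6. T-effector samples had values of 7.11, 7.0 and 7.20 in IL2 and 6.60, 6.78 and 6.80 in IL6, and with TGFb added 6.49, 6.96 and 6.77 in TGFb and 6.58, 6.91, 6.73 and 7.01 in TGFb with IL6. The sample types overlapped in every condition. The value passed with TGFb (-0.46 ± 0.09, adjusted p = 0.0104), but not without TGFb array 2 or 3 (-0.42 and -0.42, adjusted p = 0.0625 and 0.178), without slide B, with no dye term or with all spots in the background model (adjusted p 0.00345 to 0.830 over 25 alternatives).

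With TGFb and IL6 the Il1rl2 value was -0.29 ± 0.08 (adjusted p = 0.0458), a call lost under 16 of 25 alternatives, among them the omission of any array of that condition (-0.31 to -0.22, adjusted p 0.106 to 0.292), of IL2 array 1 or 2, TGFb array 2 or 3 or IL6 array 3 (-0.29, adjusted p 0.0526 to 0.0668). The values with IL2 and IL6 were -0.28 ± 0.09 and -0.11 ± 0.09 (adjusted p = 0.0606 and 0.496). No comparison of conditions passed for Il1rl2 in either sample type (adjusted p 0.0713 to 1). A second Il1rl2 probe, that of the RefSeq transcript, was well above background in 3 channels only, the Treg samples of IL2 arrays 1 and 2 and of IL6 array 2, 2 of which are those on slide A. Its Treg to T-effector values lay above 0, unlike those of the tested probe. They ran from 0.03 with TGFb to 0.53 with IL2, none past the test (adjusted p 0.161 to 0.970).

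Il18r1, the ligand-binding chain of the IL18 receptor, was raised by TGFb in both sample types and reached its highest level in Treg with TGFb alone. Its probe, at chr1:40741012-40741071, was well above background in all 26 channels. Treg samples had values of 7.77, 6.45 and 6.83 in IL2 and 7.14, 8.31 and 6.73 in IL6, and with TGFb added 9.48, 9.76 and 9.44 in TGFb and 8.06, 8.29, 7.74 and 8.27 in TGFb with IL6. The T-effector signal was 6.15, 6.33 and 6.64 in IL2 and 6.39, 6.44 and 6.51 in IL6, and with TGFb added 7.69, 8.68 and 8.13 in TGFb and 7.53, 8.37, 7.95 and 8.32 in TGFb with IL6. The 3 Treg samples with TGFb lay above every other channel. The 2 Treg samples on slide A, 7.77 and 8.31, lay above the other 4 without TGFb, which ran from 6.45 to 7.14.

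TGFb raised Il18r1 against IL2 by 2.42 ± 0.32 in Treg and 1.91 ± 0.32 in T-effector samples (log2 ± SE, adjusted p = 2.25e-05 and 0.000819), and by 2.98 and 1.80 within slide D. Across these Treg samples Ddx3y differed too, at 8.87, 6.32 and 6.43 (log2) with IL2 and 7.77 to 7.88 with TGFb. With IL6 present, TGFb raised it in T-effector samples by 1.53 ± 0.30 (adjusted p = 0.00150). In Treg the value for TGFb with IL6 against IL6 was 0.76 ± 0.30 (adjusted p = 0.135), and 1.1, adjusted p = 0.00538, without slide A. The addition of IL6 to TGFb lowered Il18r1 in Treg (-1.41 ± 0.30, adjusted p = 0.00493), with -1.42, -1.47 and -1.69 on slides E, B and D. In T-effector samples that value was -0.18 ± 0.30 (adjusted p = 0.870). The ratio difference between these conditions was -1.23 ± 0.32 (adjusted p = 0.263), and passed without slide A (-1.29, adjusted p = 0.0124), a slide that holds neither condition. Leaving it out also removes 2 arrays from the shared estimate of the spread. For TGFb against IL2, of which slide A holds 1 IL2 array, the ratio difference was 0.51 ± 0.35 (adjusted p = 0.412), and 1.02, adjusted p = 0.0384, without slide A.

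With TGFb, Il18r1 was higher in Treg than in the T-effector partners, with ratios of 1.80, 1.08 and 1.31 (1.28 ± 0.25, adjusted p = 0.0110). The call was lost without TGFb array 1 or 3 (1.20 and 1.00, adjusted p = 0.0747 and 0.227) and with all spots in the background model (adjusted p 0.000405 to 0.227 over 25 alternatives). With TGFb and IL6 the ratios were 0.54, -0.08, -0.21 and -0.05 (0.05 ± 0.21, adjusted p = 0.931). With IL2 and IL6 they were 1.62, 0.13 and 0.19 and 0.75, 1.87 and 0.22, the highest of each being the array on slide A, and the values did not pass with slide A (0.76 ± 0.25 and 0.83 ± 0.25, adjusted p = 0.0681 and 0.0730) or without it (0.32, adjusted p = 0.329 and 0.49, adjusted p = 0.135).

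Il18rap, the signalling chain of the IL18 receptor, rose with TGFb as Il18r1 did, by smaller log2 amounts. Its probe, at chr1:40789200-40789259, was well above background in 19 of 26 channels, and a second probe in 0. The Treg signal was 6.32, 6.23 and 6.22 in IL2 and 6.18, 6.41 and 6.25 in IL6, and with TGFb added 6.82, 7.07 and 6.74 in TGFb and 6.67, 6.79, 6.64 and 6.76 in TGFb with IL6. T-effector samples measured 6.31, 6.30 and 6.45 in IL2 and 6.30, 6.36 and 6.27 in IL6, and with TGFb added 6.76, 6.95 and 6.70 in TGFb and 6.58, 6.76, 6.30 and 6.43 in TGFb with IL6. In Treg all samples with TGFb, with or without IL6, lay above all samples without it. TGFb raised it against IL2 by 0.63 ± 0.11 in Treg (adjusted p = 0.000767; 0.51 within slide D).

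In T-effector samples TGFb raised Il18rap against IL2 by 0.44 ± 0.11 (adjusted p = 0.0260), a call lost without slide A (0.35, adjusted p = 0.170), without IL2 array 1 or 2 or any TGFb array (0.38 to 0.47, adjusted p 0.0692 to 0.169), with Agilent's processed signals, quantile normalization or removal of a spatial trend (adjusted p 0.0129 to 0.170 over 25 alternatives). TGFb with IL6 exceeded IL6 in Treg by 0.43 ± 0.11 (adjusted p = 0.00966), at least 1.33-fold since no Treg channel of IL6 was well above background. That call was lost without IL6 array 1 or 3 (0.38 and 0.41, adjusted p = 0.0633 and 0.07) or slide B. Treg and T-effector samples did not differ past the test in any condition (adjusted p 0.156 to 0.914), and overlapped in all 4. NK and CD8 T cells also carry both IL18 receptor chains. Of 8 NK and CD8 markers, limma called 2 higher in Treg with TGFb than with IL2, where 3.5% of all genes rose. These were Klrd1 (1.26 ± 0.24) and Cd8a (1.81 ± 0.42), and the summed signals were 3483 to 4832 and 1745 to 4876. In T-effector samples limma called 0 of the 8 and 4.26% of all genes. At an unadjusted p under 0.05, 2 of the 8 and 3529 of 19901 genes passed there. The sums were 3071 to 4100 and 4724 to 5124. For TGFb with IL6 against IL6 in T-effector samples, where Il18r1 also rose, 1 of the 8 was called higher, Klrd1 (1.81 ± 0.23, adjusted p = 8.89e-06; 5.05% of all genes rose). The sums there were 3466 to 4471 and 4884 to 5897. Klrd1 also rose when IL6 was added to TGFb, by 1.80 ± 0.23 in Treg, where Il18r1 fell (adjusted p = 1.5e-05). In T-effector samples it rose by 1.86 ± 0.23 in that comparison (adjusted p = 8.04e-06), where Il18r1 did not pass. The part of such cells in the rise of Il18r1 was not tested.

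**Figure D2:**
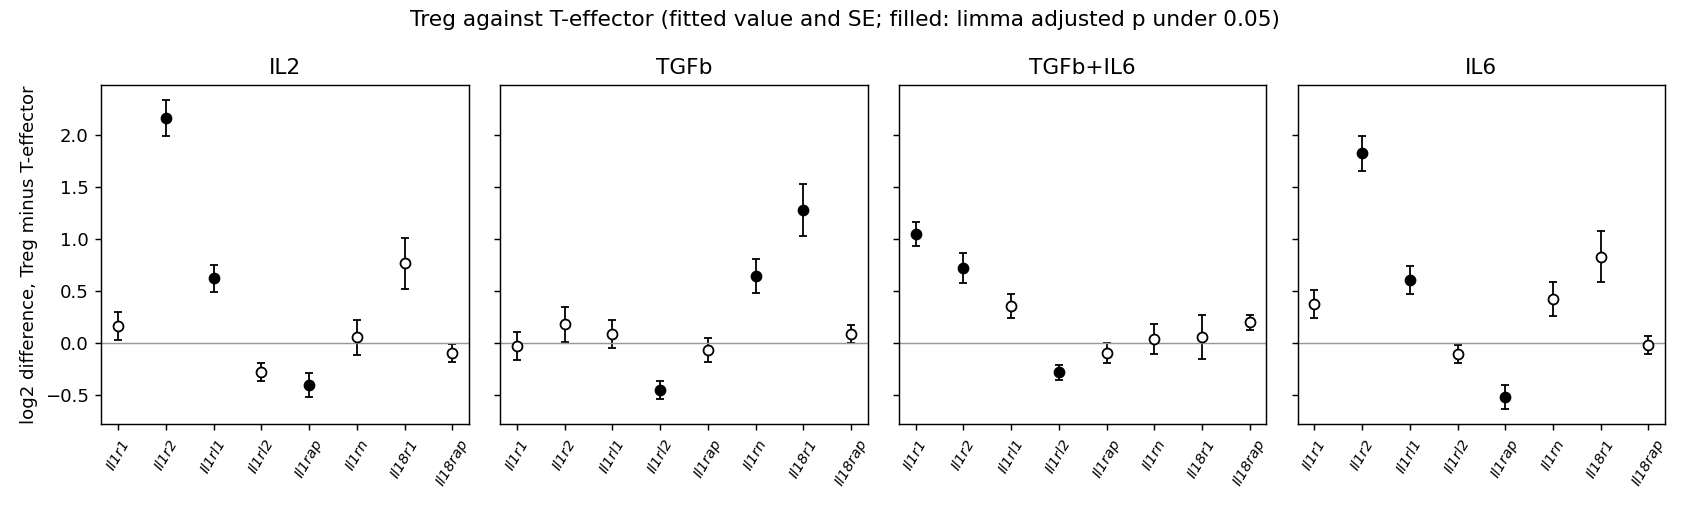
Fitted log2 difference of Treg minus T-effector samples (vertical axis) for the 8 genes in each condition, with bars of 1 SE and filled symbols where limma's adjusted p was under 0.05. Il1r1 with TGFb and Il1rn with IL2 were not well above background on either side. In each panel 3 symbols are filled, with Il1r2 at 2.16 with IL2 and 1.82 with IL6, Il18r1 at 1.28 with TGFb and Il1r1 at 1.04 with TGFb and IL6.

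**Figure D3:**
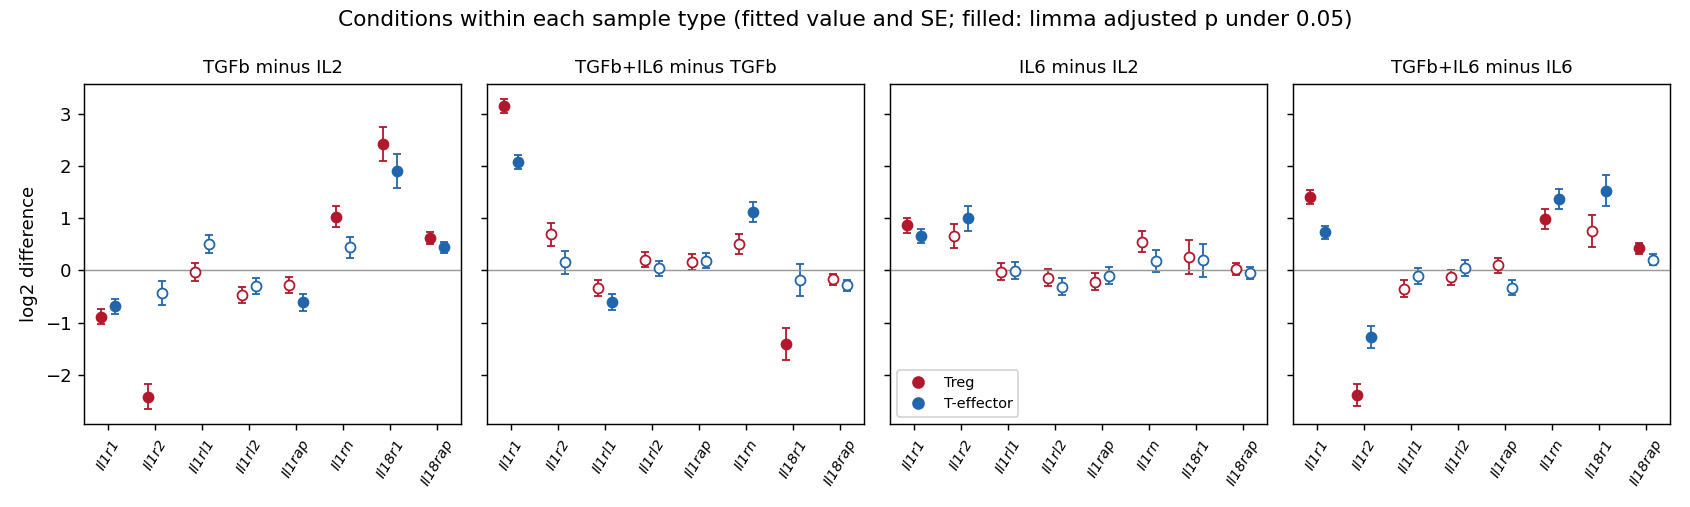
Fitted log2 difference between conditions (vertical axis) for the 8 genes, with Treg in red and T-effector in blue, bars of 1 SE and filled symbols where limma's adjusted p was under 0.05. Differences of Il1r1 from TGFb and of Il1rn from IL2 rest on a side not well above background. Il1r1 stands at 3.16 and 2.08 where IL6 was added to TGFb, Il18r1 at 2.42 and 1.91 for TGFb against IL2, and Il1r2 in Treg at -2.42 and -2.39 in both comparisons that add TGFb.

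Ordered by their mean level, the 8 groups of samples formed the most separate steps for Il1r1 and Il1r2. For Il1r1 (mean log2 ± SD) Treg with TGFb and IL6 came first at 9.14 ± 0.04, then T-effector with TGFb and IL6 at 8.10 ± 0.13. The IL6 groups followed at 7.71 ± 0.25 and 7.40 ± 0.17, which overlapped, and the IL2 groups at 6.90 ± 0.20 and 6.68 ± 0.28, which also overlapped. The TGFb groups, not well above background, were lowest. For Il1r2 the order was Treg with IL6 (9.56 ± 0.75) and with IL2 (8.88 ± 0.21), which overlapped, T-effector with IL6 (7.72 ± 0.23), Treg with TGFb and IL6 (7.16 ± 0.14) and T-effector with IL2 (6.73 ± 0.07). The other three Il1r2 groups had means of 6.29 to 6.48, and each overlapped its neighbour. For Il18r1 Treg with TGFb (9.56 ± 0.17) was separate, and each group below it overlapped its neighbour. For Il1rn both TGFb with IL6 groups came first, and the groups below them each overlapped their neighbour. For Il1rl1, Il1rl2, Il1rap and Il18rap every neighbouring pair of groups overlapped. The Treg samples of IL6 had the largest spread for Il1r2, Il1rn and Il18r1 (SD 0.75, 0.59 and 0.82), and slide A held the lowest array for Il1r2 and Il1rn and the highest for Il18r1.

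The authors' deposited table gives each probe 1 log2 ratio for each condition, Treg over T-effector, with its normalization not stated. In the authors' deposited table Il1r2 stood at 2.85, 1.42, 2.10 and 2.01 for IL2, TGFb, TGFb with IL6 and IL6. In the authors' deposited table Il1r1 stood at 0.13, -0.69, 1.30 and 0.30, and Il18r1 at 1.62, 1.58, 0.06 and 1.70, in the same order. The authors' deposited table gave Il1rl1 at 1.26, 0.09, 1.54 and 2.34 and Il1rap at -0.87, -0.34, -0.52 and -1.51. Unlike in the fit here, Il1rl1 led the family there with IL6 (2.34 against 2.01 for Il1r2). With TGFb and IL6 Il1r2 led there (2.10), with Il1rl1 (1.54) also above Il1r1 (1.30). The fit here adds an offset of 50 to each signal, which by its construction draws the log ratios of dim probes toward 0. For Il1r2 with TGFb, with 3 of 6 channels not well above background, the value was 1.42 in the authors' deposited table and 0.18 in the fit here. With TGFb and IL6, where all 4 Treg channels were well above background, it was 2.10 there and 0.71 here. The smaller Il1r2 ratio with TGFb and IL6 than with IL6 in the fit (-1.11) is therefore not seen in the deposited values, 2.10 and 2.01. What part the offset has in these gaps was not tested.

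The genes next to the cluster were looked up for comparison. Slc9a2, a sodium-proton exchanger gene beyond Il18rap and Slc9a4, was higher in Treg with TGFb and IL6 by 1.30 ± 0.09 (adjusted p = 2.64e-05), and IL6 added to TGFb raised it in Treg by 1.76 ± 0.17 (adjusted p = 3.8e-07) and in T-effector samples by 0.73 ± 0.17 (adjusted p = 0.00846). Map4k4, the kinase gene before Il1r2, rose in the same comparison by 0.81 ± 0.18 in Treg and 1.09 ± 0.18 in T-effector samples (adjusted p = 0.0079 and 0.000379). Mfsd9, the next gene beyond Slc9a2, passed none of the 16 comparisons (adjusted p 0.247 to 1).

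Over the 26 channels, which share arrays, slides and dyes, the signals of Il18r1 and Il18rap correlated at Pearson's r = 0.809 and those of Il1rl2 and Il1rap at 0.724. Il1r2 and Il18rap ran opposite (r = -0.63), as did Il1rl1 and Il1rap (-0.636) and Il1rl1 and Il1rl2 (-0.607). The remaining pairs lay between -0.516 and 0.604, the highest being Il1r1 with Il1rn. Among all other genes, those most like Il1r1 were Adarb1 (0.967), Flot1 (0.957) and Serpinb5 (0.941), and those most like Il18r1 were Drc1 (0.971), Creb5 (0.971) and LOC433637 (0.951). For Il1r2 they were Prdm1 (0.922), the gene of the transcription factor Blimp1, Csta2 (0.915) and Snx20 (0.912). For Il1rn they were Entpd1 (0.939), which encodes the ectoenzyme CD39, Stab1 (0.933) and Smad7 (0.93), an inhibitor of TGFb signalling. Dusp4 (0.918) was most like Il1rl1, Ctdspl (0.89) most like Il1rap, Sh3pxd2a (0.847) most like Il1rl2, and Sgk3 (0.903) and Lta (0.897) most like Il18rap.

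The ligands were mostly dim. Of 10 genes for IL1 family ligands, 8 were on the array and 4 were tested, since Il1b and Il36g were well above background in 0, Il33 in 1 and Il1f10 in 2 of 26 channels. Il36b (named Il1f8 in the files) was higher in Treg with IL2 (1.16 ± 0.19, adjusted p = 0.00371), and its ratio was smaller with TGFb than with IL2 (-1.51 ± 0.27, adjusted p = 0.0113). Il1a was well above background in 6 channels, too few to give its differences. Among genes that process the ligands, the inflammatory caspases Casp1 and Casp4 fell with TGFb against IL2 (log2 -1.80 and -2.37 in Treg, -1.66 and -1.99 in T-effector samples, adjusted p 1.04e-06 to 2.93e-05). Gsdmd, the pore-forming gasdermin, fell with them (-0.50 ± 0.15 and -0.83 ± 0.15). In all, 3 of 6 tested genes of that list fell and 0 rose in each sample type, where 4.04% of all genes fell in Treg and 2.32% in T-effector samples, with a list median of -0.272 and -0.531.

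Of the other receptors and the binding protein, 3 of 4 were tested. Sigirr, an inhibitory receptor of the family, fell with TGFb against IL2 in Treg (-1.09 ± 0.20, adjusted p = 0.00118) and T-effector samples (-0.92 ± 0.20, adjusted p = 0.00987). Of 22 genes of the MyD88 pathway, 1 rose and 1 fell with TGFb against IL2 in each sample type, where 7.54% of all genes passed in Treg and 4.26% in T-effector samples, so that this share was near the background in Treg. The adaptor Myd88 was the only one of the 22 to pass when IL6 was added to TGFb, at 0.88 ± 0.11 in Treg and 0.82 ± 0.11 in T-effector samples (adjusted p = 1.84e-05 and 3.38e-05), where 5.38% and 7.21% of all genes passed. With TGFb and IL6 against IL6, 3 rose and 2 fell in Treg, and 3 rose and 1 fell in T-effector samples (9.6% and 10.9% of all genes passed), with the ubiquitin ligase Traf6 highest at 1.72 ± 0.21 and 1.17 ± 0.21. For IL6 against IL2, limma called 0 of 22 in either sample type, and 0.834% and 0.784% of all genes. At an unadjusted p under 0.05, 2 of the 22 and 1701 of 19901 genes passed in Treg. In T-effector samples 0 of the 22 and 941 of 19901 did. The median of the pathway lay between -0.06 and 0.153 in the 8 comparisons of conditions.

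The comparison in which Il1r1 rose most also raised 2 cytokine genes of Th17 cells. When IL6 was added to TGFb, Il17f rose by 3.07 ± 0.12 in Treg and 3.59 ± 0.12 in T-effector samples, and Il17a by 1.33 ± 0.16 and 1.19 ± 0.16 (log2, adjusted p 2.01e-14 to 2.75e-05). Gata3, the Th2 factor, fell with TGFb against IL2 (log2 -2.33 in Treg and -1.92 in T-effector samples, adjusted p = 0.0028 and 0.0217), the comparison in which Il1r2 fell in Treg and Il18r1 rose in both. B cell markers moved there as well: Ighm rose in Treg (1.18 ± 0.13) and Cd79b fell (-1.73 ± 0.27 in Treg, -2.71 ± 0.27 in T-effector samples), with summed signals of the 7 markers of 4899 to 6020 with IL2 and 8952 to 9999 with TGFb in Treg. Their part in the results was not tested.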

How the data were processed

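Each of 13 two-colour Agilent arrays was hybridised with Treg RNA in one dye and T-effector RNA in the other. The scanner files deposited by the authors hold a mean and a background intensity for the spots in both dyes. The submitters' processing notes name Agilent Feature Extraction 9.5.1.1. The authors' deposited value table holds log2 ratios whose normalization is not given in the sources used here. It agreed in direction with Treg over T-effector, with r between 0.85 and 0.89 over probes for the 4 conditions.

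From the scanner intensities, background was corrected with normexp (offset 50, fitted without local-background-flagged spots) and ratios were normalized by loess, which limma 3.58.1 in R 4.3.3 carried out. Control spots and outlier-flagged spots were left out. Of 41174 non-control probes, 28923 passed Agilent's background limit in 3 or more of the 26 channels and had at most 3 missing arrays. The probe with the highest mean signal stood for each gene. Of the 19901 genes tested, 135 lacked an array, none of them among the 8. Names came from accessions, symbols and synonyms in RefSeq where they matched.

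Treg to T-effector log2 ratios were fitted with lmFit and eBayes over all 13 arrays with a dye term for each gene, and differences between conditions were contrasts of that fit. Signals of single channels were fitted with lmscFit after Aquantile normalization. Each comparison's p-values were adjusted over its tested genes (Benjamini-Hochberg), with 0.05 as the threshold. Both fits were tested on simulated data. The number of arrays limits the precision.

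TGFb and TGFb with IL6 both have arrays numbered 1, 2 and 3. Deviations from the group means correlated within same-numbered arrays at 0.757, 0.728 and 0.535 for ratios, 0.704, 0.539 and 0.397 for Treg and 0.848, 0.792 and 0.283 for T-effector samples, so the numbers were taken to pair them in the fit with a replicate block. Same-numbered arrays also share slide and dye orientation, which cannot be told apart from the pairing. Arrays of different numbers reached 0.457 in T-effector samples (1 with 3) and 0.396 in Treg.

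All 8 genes were named whatever their test. Of other lists, counts were given and at most 4 genes that passed a comparison, by the largest change. Neighbouring genes, alike genes, Y-linked genes and the markers that describe slide A were chosen after values were seen. Some results on 1 gene of these lists are not reported here. The 8 genes and the lists were chosen with earlier results of these data known. Alternatives covered the dye term, background, normalization, filter, probe, slide, spatial trend, pairing and each array left out.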

Additional observations from a re-analysis of the deposited data

Results flagged for a closer look

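The Treg to T-effector ratio differed between conditions in 3 results, by limma's test of the difference of ratios. For the decoy receptor Il1r2 the log2 ratio was smaller with TGFb than with IL2 (-1.99 ± 0.24, adjusted p = 0.00193), and smaller with TGFb and IL6 than with IL6 (-1.11 ± 0.22, adjusted p = 0.0260). For the signalling receptor Il1r1 the fitted ratio was larger by 1.08 ± 0.18 with TGFb and IL6 than with TGFb (adjusted p = 0.0332), but none of the 6 TGFb channels was well above background, so that this difference has no measured reference. The last 2 were lost when single arrays were left out, with adjusted p up to 0.116 for that of Il1r2 and 0.377 for Il1r1. Over all alternatives their adjusted p reached 0.594 and 0.603, the first with a difference of -0.27 with Agilent's processed signals. The authors' deposited ratios of Il1r2, 2.10 with TGFb and IL6 and 2.01 with IL6, do not show the smaller ratio with both cytokines. In the 4 arrays of TGFb with IL6, no value of the 8 genes stood apart by Dixon's test.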

How the results depend on the processing

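Counts are of the 8 genes past the threshold, and no value that passed changed its sign under any alternative run. The share of all genes that passed under each alternative is not given, so a changed count cannot be set against it. Treg against T-effector samples with IL2 (3 genes) gave 6 with Agilent's processed signals, 1 when all spots entered the background model (the all-spot model), 5 with median centring and 1 to 5 with 1 array left out. With TGFb (3) it gave 1 with no dye term, 0 with the all-spot model, 1 without slide B and 0 to 3 with 1 array left out. With TGFb and IL6 (3) it gave 5 with Agilent's signals, 1 with the all-spot model, 1 with median centring, 1 without slide B and 1 to 3 with 1 array left out, and with IL6 (3) 1 to 4. The ratio difference of TGFb against IL2 (1) gave 2 with Agilent's signals, 0 with the all-spot model, 4 with median centring, 2 with a spatial trend removed and 2 without slide A. That of TGFb with IL6 against TGFb (1) gave 0 with no dye term, Agilent's signals, no background subtraction, median centring, without slide B or with the replicate block, 2 without slide A and 0 to 1 with 1 array left out. The replicate block, which uses the pairing of arrays, changed no other call of the 8 genes. That of TGFb with IL6 against IL6 (1) gave 2 with Agilent's signals or median centring, 3 with slide as a block or a spatial trend removed, 0 without slide B and 0 to 2 with 1 array left out. In Treg, TGFb with IL6 against TGFb (2) gave 2 to 4 and IL6 against IL2 (1) gave 1 to 3 with 1 array left out, and 3 without slide A. In T-effector samples TGFb against IL2 (4) gave 2 without slide A and 1 to 4 with 1 array left out. IL6 against IL2 (2) gave 0 with Agilent's signals or the all-spot model, 1 with no background subtraction, quantile normalization, no filter, slide as a block, without slide B or with a spatial trend removed, and 0 to 1 with 1 array left out. Slide A was left out as an alternative chosen after seeing the data. Signals near background limit Il1r1 with TGFb and Il1rn with IL2 to bounds.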
